A study of Mus musculus with 2 samples.

Results

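The genes described here encode the signalling pathway of transforming growth factor beta (TGF-beta) and of the bone morphogenetic proteins (BMPs), from ligands and receptors to Smads, extracellular modulators and target genes. They were compared between 2 lines of mouse embryonic fibroblasts (MEFs, connective tissue cells grown from embryos). One line was Lsh+/+ (wild type) and the other Lsh-/- (knockout). Lsh, the product of the gene Hells, is a chromatin remodelling protein of the SNF2 family that is needed for normal DNA methylation. Both lines were grown without treatment in the same serum-containing medium, and total RNA of each was hybridised to 1 Affymetrix Mouse Genome 430 2.0 array. The labels give neither the age nor the strain of the embryos, nor how many embryos each line came from. The gene list held 39 genes, chosen for their place in the pathway but with earlier results of these arrays known. A row matched 37 of them among 16579 genes in all; Bmp6 and Gdf6 had no matched row and were not analysed here.

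TGF-beta and BMP ligands bind pairs of type I and type II receptor kinases, which phosphorylate receptor Smads. Smad2 and Smad3 carry the TGF-beta and activin signal, Smad1 and Smad5 the BMP signal, and both kinds join Smad4 and enter the nucleus to act on target genes. TGF-beta is secreted in a latent form that is anchored to the matrix by latent TGF-beta binding proteins and has to be released before it can signal, while BMPs are held in check by secreted antagonists such as gremlin and noggin. In fibroblasts, TGF-beta is best known as an inducer of matrix and contractile genes, and BMPs as inducers of the Id genes.

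Values are on the authors' log2 scale, computed by them with the RMA method, and each difference is Lsh-/- minus Lsh+/+. With 1 array a genotype there was no spread within a genotype and no test, so genes were sorted by size alone, with 2-fold (1 on the log2 scale) as the line, and a difference cannot be assigned to the genotype rather than to the 2 lines, cultures or arrays. Levels were not compared between genes, because different probes differ in brightness. A gene was kept where its value reached the median of all rows on at least 1 of the arrays, 3.86 on the Lsh+/+ array and 3.88 on the Lsh-/- array (the dimness limit, which says nothing about whether a gene was detected). Of the 37 measured genes of the pathway 35 were kept (Tgfbr1 and Nog were not), 31 of them with both values above the limit. In a culture, fewer cells of a type and less RNA per cell cannot be told apart.

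The arrays differed in other ways that touch these values. Hells itself read 6.68 in Lsh+/+ and 5.22 in Lsh-/-, a difference of -1.46, and so stayed above the dimness limit in the knockout. The 9 hybridisation control probe sets, which report RNA added in fixed amounts, were higher on the Lsh-/- array by a median of 0.44 (range 0.21 to 0.78), and scaling to them lowered every difference by that amount. The gap between 3′ and 5′ control probe sets was wider in Lsh-/- by 0.60 for Actb and 0.70 for Gapdh, and narrower by -0.59 for 18S ribosomal RNA. Of 14 fibroblast markers 12 were kept, and Vim, Fn1 and Sparc read above 10 on both arrays, whereas Thy1 and Fap lay below the limit on both. At least 2-fold lower were 4 of the 12, Col1a2 (-4.43), S100a4 (-3.99), Pdgfra (-1.19) and Pdgfrb (-1.15), 1 was higher (Ddr2, 1.39), and the median was -0.49. The summed linear level of the fibroblast markers was 24028 in Lsh+/+ and 17278 in Lsh-/-, and that of 7 smooth muscle and myofibroblast markers was 2771 and 979 (Myh11 dim on both). The sum of 8 epithelial markers was 272 in Lsh+/+ and 1806 in Lsh-/-, with Krt18 and Krt19 higher and Epcam, Cdh1, Krt5 and Cldn4 below the limit on both arrays. Krt8 and Krt14 lay within 2-fold, at 0.24 and 0.46. In all these sums the brightest probes weigh most, so a sum does not stand for every marker of its list. None of 4 measured blood markers was kept, and 4 of 6 endothelial markers were dim on both. The kept endothelial markers went in opposite directions, Kdr by 1.82 and Egfl7 by -1.73. Of 5 measured bone and cartilage markers 3 were kept, Spp1 (1.48), Sox9 (0.56) and Alpl (-1.06). The part of these differences in the results below was not tested.

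Lower in Lsh-/- by at least 2-fold were 9 of the 35 kept genes, where 6.06% of all 9169 kept genes were, and none was at least 2-fold higher, where 4.65% of kept genes were. Without the limit the same counts stood against 3.63% lower and 2.91% higher among all 16579 genes. The 9 were Tgfbi, Ltbp2, Grem1, Thbs1, Tgfbr3, Ccn1, Bmp4, Bmp2 and Tgfb3, of which 6 had both values above the limit (4.03% of 8184 such genes were 2-fold lower). The other 3, Tgfbi, Ltbp2 and Grem1, passed the limit on the Lsh+/+ array alone, the array on which they are high. The other 26 lay within 2-fold. The median over the 35 was -0.12, beside 0.01 for all kept genes, and 21 of the 35 were below 0, as were 48.2% of all kept genes. Scaled to the hybridisation controls, 11 of the 35 were at least 2-fold lower (14.7% of kept genes), none was higher (1.83% of kept genes), and 6 of the 14 positive differences turned negative. The list was chosen with earlier results of these arrays known, so its count is a description and not support for a change of the pathway.

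**Figure D1:**
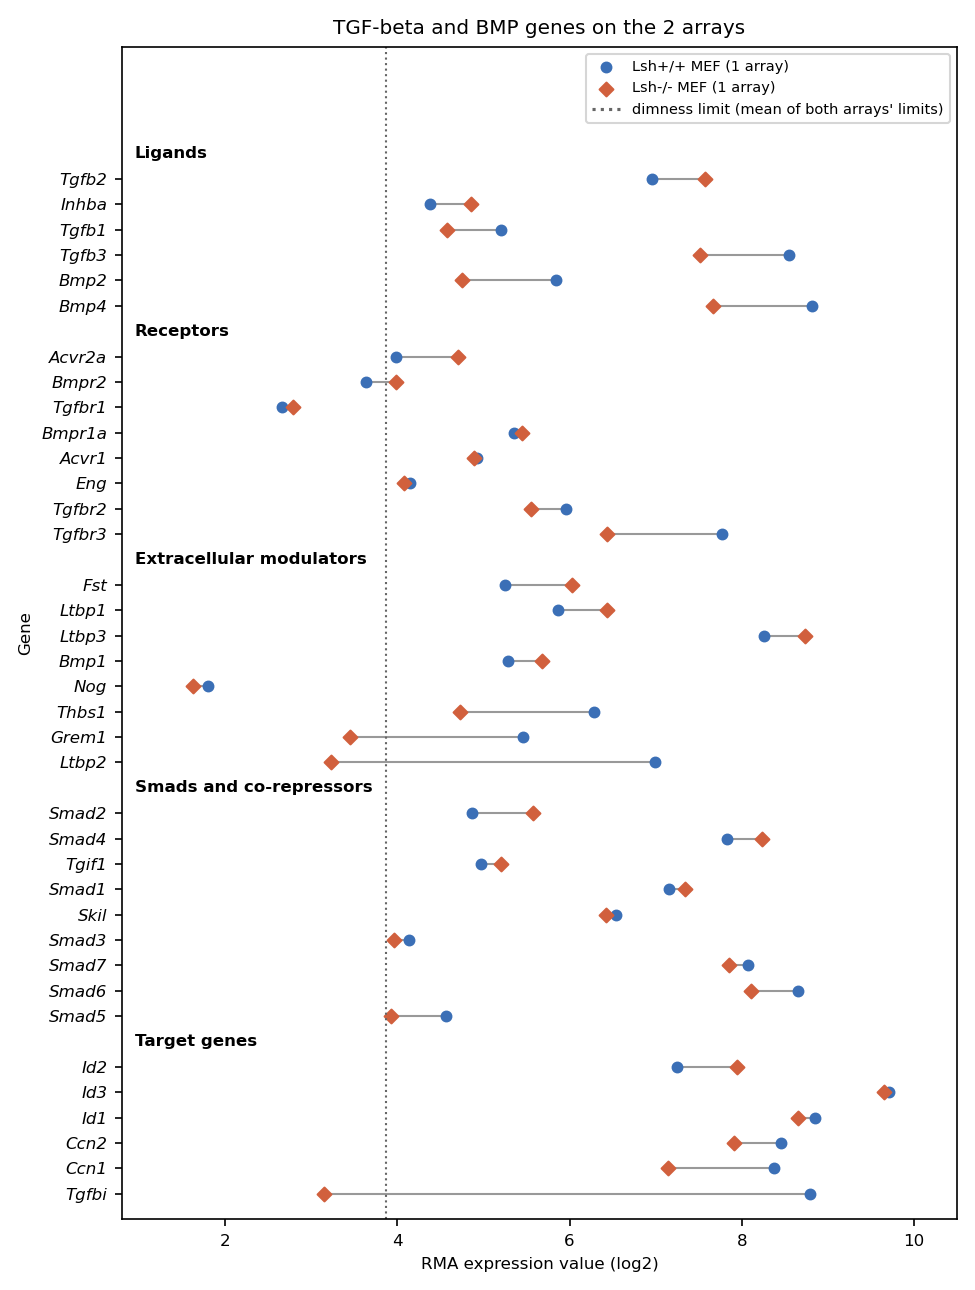
RMA expression values (log2, x axis) of the 37 measured genes on the Lsh+/+ array (circles) and the Lsh-/- array (diamonds), 1 array each and so without error bars, grouped by role. Tgfbi and Ltbp2 have the longest lines, from 8.79 to 3.14 and from 7.0 to 3.23, whereas the Smads and the type I and II receptors stay close together.

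The 9 lower genes lay at all levels of signal. When the kept genes were divided into 4 equal groups by the mean of both arrays, the share at least 2-fold lower was 9.63% in the dimmest group and 4.93% in the brightest. The dimmest group held 7 of the pathway genes with 1 lower, and the brightest held 14 with 4 lower (Tgfb3, Bmp4, Ccn1 and Tgfbr3). Just past the 2-fold line lay Tgfb3 at -1.03 and Bmp2 at -1.09, and the nearest gene on the other side was Smad5 at -0.64, so that no gene of the list lay between these. Fst, at 0.78, had the highest difference of the list.

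**Figure D2:**
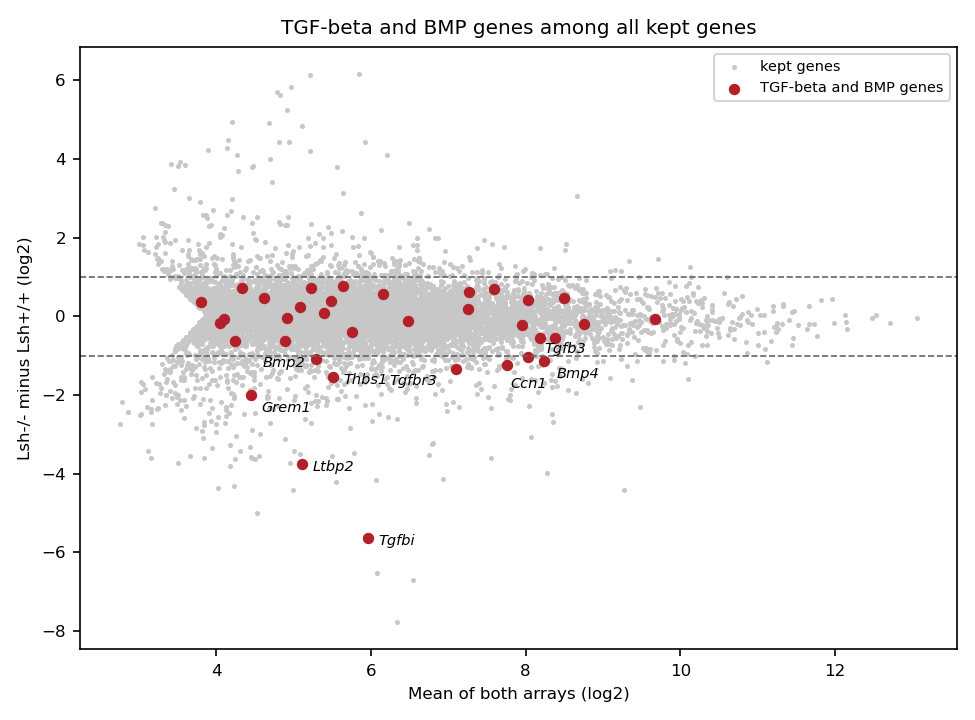
Difference between the arrays (log2, y axis) against the mean of both arrays (log2, x axis) for 9169 kept genes (grey) and the 35 kept TGF-beta and BMP genes (red); dashed lines mark 2-fold. Tgfbi, at -5.65, lies near the lower edge of all genes, Ltbp2 follows at -3.77, and no red point lies above the upper line.

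The stretch of 250 bases before the annotated start of the gene is printed for the 5 lower genes that the RefSeq promoter table holds, because Lsh acts on DNA methylation and the CG dinucleotides, set in capitals, are the sites that can be methylated. Sequences are from RefSeq, build GRCm38.p6, on the strand of the gene. They are Tgfbi at chr13:56609336-56609585 (plus strand), Ltbp2 at chr12:84876492-84876741 (minus strand), Grem1 at chr2:113758649-113758898 (minus strand), Ccn1 at chr3:145649986-145650235 (minus strand) and Bmp4 at chr14:46390670-46390919 (minus strand), all directly before the annotated start.
Tgfbi: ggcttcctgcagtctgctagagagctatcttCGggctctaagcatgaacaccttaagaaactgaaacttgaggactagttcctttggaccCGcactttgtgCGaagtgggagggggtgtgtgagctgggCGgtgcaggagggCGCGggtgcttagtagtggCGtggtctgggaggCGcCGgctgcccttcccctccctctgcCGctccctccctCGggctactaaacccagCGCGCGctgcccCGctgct
Ltbp2: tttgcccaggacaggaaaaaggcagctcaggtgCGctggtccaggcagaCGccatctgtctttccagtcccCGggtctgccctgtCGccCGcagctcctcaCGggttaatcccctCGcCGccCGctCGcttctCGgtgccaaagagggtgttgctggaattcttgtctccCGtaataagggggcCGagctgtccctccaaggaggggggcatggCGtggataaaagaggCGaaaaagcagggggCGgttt
Grem1: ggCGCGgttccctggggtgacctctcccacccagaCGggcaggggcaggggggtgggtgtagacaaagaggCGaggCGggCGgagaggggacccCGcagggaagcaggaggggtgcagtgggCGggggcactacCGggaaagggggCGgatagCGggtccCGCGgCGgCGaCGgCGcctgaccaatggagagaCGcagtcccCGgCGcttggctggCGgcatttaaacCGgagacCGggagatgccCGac
Ccn1: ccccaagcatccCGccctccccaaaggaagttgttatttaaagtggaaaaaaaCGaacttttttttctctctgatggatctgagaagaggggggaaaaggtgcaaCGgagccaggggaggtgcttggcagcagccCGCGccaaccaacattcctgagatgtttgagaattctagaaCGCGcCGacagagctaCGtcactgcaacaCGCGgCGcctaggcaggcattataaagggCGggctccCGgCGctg
Bmp4: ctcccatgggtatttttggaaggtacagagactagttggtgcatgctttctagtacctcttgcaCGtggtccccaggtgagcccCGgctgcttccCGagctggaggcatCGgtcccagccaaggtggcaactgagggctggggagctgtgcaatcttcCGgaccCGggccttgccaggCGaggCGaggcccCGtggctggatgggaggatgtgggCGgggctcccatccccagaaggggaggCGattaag

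Over the whole table window, which adds 50 bases after the start for 300 in all, the number of CG dinucleotides was 22 for Tgfbi, 20 for Ltbp2, 28 for Grem1, 20 for Ccn1 and 12 for Bmp4. The other 20 genes of the list with an entry ranged from 3 to 54 with a median of 24, taking the richest window of a gene with several. These ranges overlap fully: none of the 5 was richer or poorer in CG than all the others. Over all kept genes with an entry, the median was 19 for the 428 that were at least 2-fold lower, 19 for the 317 higher and 23 for the 6635 within 2-fold. Methylation was not measured in the values used here.

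**Figure D3:**
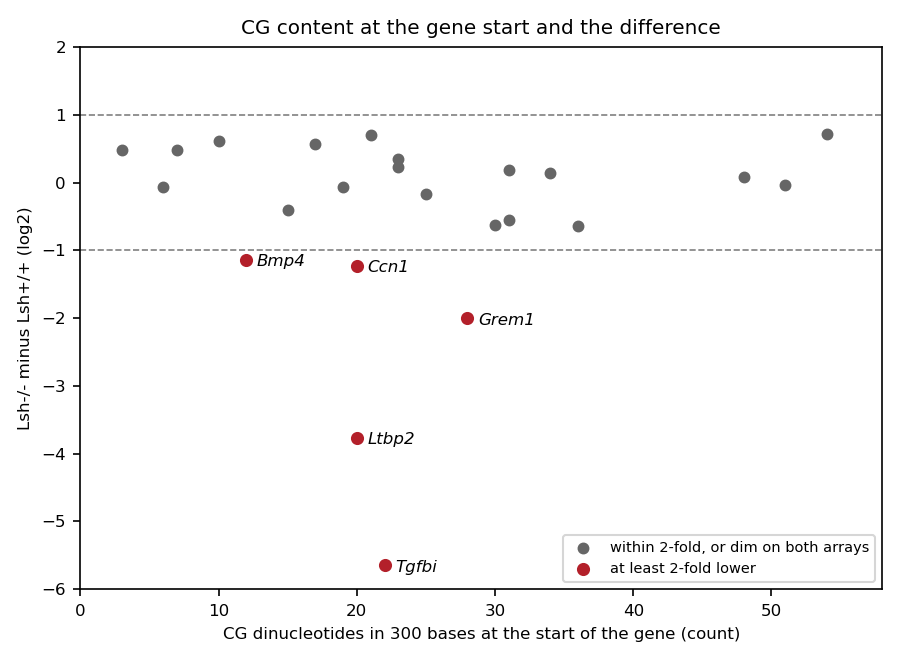
Number of CG dinucleotides in the 300 bases around the gene start (x axis) and the difference between the arrays (log2, y axis) for 24 measured genes of the list with a RefSeq window, the richest window of each. The 5 lower genes (red) hold 12 to 28 CG dinucleotides and sit inside the range of the other genes (grey).

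Short motifs of factors that act in the pathway or on its targets were searched on both strands of the 33 windows of the list, which belong to 25 genes. CAGAC, the core site bound by Smad3 and Smad4, was in 18 of the 33 (54.5%) and in 49.6% of all 32851 windows. GGCGCC, a GC-rich Smad element, was in 9 of 33 (27.3%) beside 11.9% of all windows, counting 2 overlapping windows of Smad5 as separate, in a list whose windows held more CG (median 22) than all windows (median 7). Among the printed genes it lies 77 bases before the start in Tgfbi, 78 in Grem1 and 42 in Ccn1, and not in the windows of Ltbp2 and Bmp4. The Ccn1 window also holds TATAAA, the TATA box, 25 bases before the start, and GGAATG, the core bound by TEAD factors, on the opposite strand 103 bases before it. TATAAA was in 3 of 33 windows (9.09%) and 13.6% of all, GGAATG in 2 (6.06%) and 14.7% of all, and TGANTCA, the AP-1 site, in 1 (3.03%) and 7.81% of all. The TGANTCA window was that of Ltbp3. Such matches are letters and do not show binding.

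Among the measured ligands, Bmp2, Bmp4 and Tgfb3 were lower in Lsh-/-, while Tgfb2 and the activin subunit gene Inhba were not. Of 6 measured ligand genes 3 were at least 2-fold lower (6.06% of all kept genes were) and none was higher (4.65%). Bmp4, a BMP ligand of mesoderm and limb development, read 8.81 in Lsh+/+ and 7.67 in Lsh-/-, a difference of -1.14 (2.21-fold lower). Bmp2, its close relative and an inducer of bone, read 5.84 and 4.75, a difference of -1.09 (2.13-fold lower). Tgfb3, the TGF-beta of palate fusion, read 8.55 and 7.52, a difference of -1.03 (2.04-fold lower). These 3 stood just past the line, and Bmp2 and Tgfb3 lay short of it once 32 was added to the linear values as a pseudocount, at -0.60 and -0.92.

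The 3 TGF-beta genes did not move in the same direction. Tgfb1, the broadly expressed form, read 5.20 and 4.58, a difference of -0.62. Tgfb2 read 6.96 and 7.57, a difference of 0.62, and stayed above 0 (0.18) after scaling to the hybridisation controls, whereas Tgfb1 and Tgfb3 went to -1.06 and -1.47. Inhba, the subunit that forms activin A, read 4.38 and 4.86, a difference of 0.48 that the same scaling reduced to 0.04.

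The receptors that carry the kinase lay within 2-fold, and the co-receptor betaglycan was the only receptor gene past the line. Of 7 kept receptor genes 1 was thus lower (6.06% of all kept genes were) and none was higher (4.65%). Tgfbr3 encodes betaglycan, which presents TGF-beta 2 to the kinase receptors and also binds inhibin. It read 7.77 in Lsh+/+ and 6.44 in Lsh-/-, a difference of -1.33 (2.52-fold lower), and ranged from -1.77 to -1.08 over the alternative settings. Eng, which encodes the related co-receptor endoglin, read 4.14 and 4.07, close to the limit on both arrays.

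Tgfbr2, the type II receptor of TGF-beta, read 5.95 and 5.55, a difference of -0.40. Its partner Tgfbr1 lay below the limit on both arrays, at 2.66 and 2.79. Among the BMP and activin receptors, Bmpr1a read 5.36 and 5.44, and Acvr1 read 4.93 and 4.90. The type II receptors Acvr2a and Bmpr2 read 3.98 and 4.70, and 3.63 and 3.99, so that Bmpr2 was kept by its Lsh-/- value alone. Their differences of 0.72 and 0.35 became 0.28 and -0.08 after scaling to the hybridisation controls.

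The extracellular modulators ranged from -3.77 to 0.78 among 7 kept genes, with 3 at least 2-fold lower (6.06% of all kept genes were) and none higher (4.65%). Of the 5 with both values above the limit 1 was lower, where 4.03% of all such genes were. Ltbp2, a latent TGF-beta binding protein family member that sits on microfibrils and, unlike its relatives, does not bind latent TGF-beta, read 7.0 in Lsh+/+ and 3.23 in Lsh-/-. The difference of -3.77 ended below the dimness limit, so it is given as at least 8.65-fold lower. Its relatives lay within 2-fold, in both directions. Ltbp1, which anchors latent TGF-beta, read 5.87 and 6.44, a difference of 0.57. Ltbp3, which also binds latent TGF-beta, read 8.25 and 8.73, a difference of 0.47. Both remained above 0 after scaling to the hybridisation controls, at 0.13 and 0.04. Ltbp4, which was not in the main list, read 6.55 and 6.07, a difference of -0.47.

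Thbs1 encodes thrombospondin 1, a matrix glycoprotein that can activate latent TGF-beta and is itself induced by it. It read 6.28 in Lsh+/+ and 4.73 in Lsh-/-, a difference of -1.55 (2.93-fold lower), which was -0.91 with the pseudocount. Grem1, which encodes gremlin, an antagonist that binds BMP2 and BMP4, read 5.46 and 3.45, a difference of -2.00 that ended below the limit and is given as at least 2.98-fold lower. Grem1 was thus lower together with Bmp2 and Bmp4. The pseudocount brought Grem1 to -0.82.

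The antagonists noggin and follistatin were not past 2-fold. Nog, which encodes noggin, was below the limit on both arrays at 1.79 and 1.63. Fst, which encodes follistatin, an antagonist of activin, read 5.24 and 6.03, a difference of 0.78 and 0.34 after scaling to the hybridisation controls. Bmp1 is not a BMP but the proteinase that trims procollagens, and it also cleaves the BMP antagonist chordin. Its brighter row read 5.29 and 5.68, and its second row differed by 0.39, close to the 0.40 of the first; it was the only gene of the list with rows of different values. The scaling brought it to -0.04.

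None of the 9 Smad and co-repressor genes was at least 2-fold apart, with differences from -0.64 to 0.71. Over all kept genes 6.06% were lower and 4.65% higher, so a count of none among 9 genes is close to these shares. Smad2 read 4.86 and 5.58, and Smad3 read 4.13 and 3.97, differences of 0.71 and -0.16 for the Smads of the TGF-beta branch. Smad1 read 7.16 and 7.34, and Smad5 read 4.57 and 3.93, differences of 0.18 and -0.64 for those of the BMP branch. In each branch one Smad was thus above 0 and the other below, and Smad1 turned to -0.26 after scaling to the hybridisation controls. Smad4, the partner common to both branches, read 7.83 and 8.24, a difference of 0.40 (-0.04 after the scaling).

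The inhibitory Smads are induced by the pathway and act back on its receptors. Smad6, the inhibitor of the BMP branch, read 8.65 and 8.10, a difference of -0.55. Smad7, the inhibitor of both branches, read 8.07 and 7.85, a difference of -0.23. Skil, which encodes the Smad co-repressor SnoN, read 6.54 and 6.42, and Tgif1, another co-repressor of Smad2, read 4.98 and 5.20; their differences were -0.12 and 0.23.

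Smad2, Smad4 and Smad7 lie on chromosome 18, whose 240 kept genes had a median difference of 0.42. With the median of each chromosome subtracted they stood at 0.29, -0.02 and -0.65. The 7 kept genes of the list on chromosome 2, where the median of 716 genes was -0.12, included 3 of the 9 lower genes, and after the same subtraction Grem1 was at -1.88, Thbs1 at -1.43 and Bmp2 at -0.97.

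**Figure D4:**
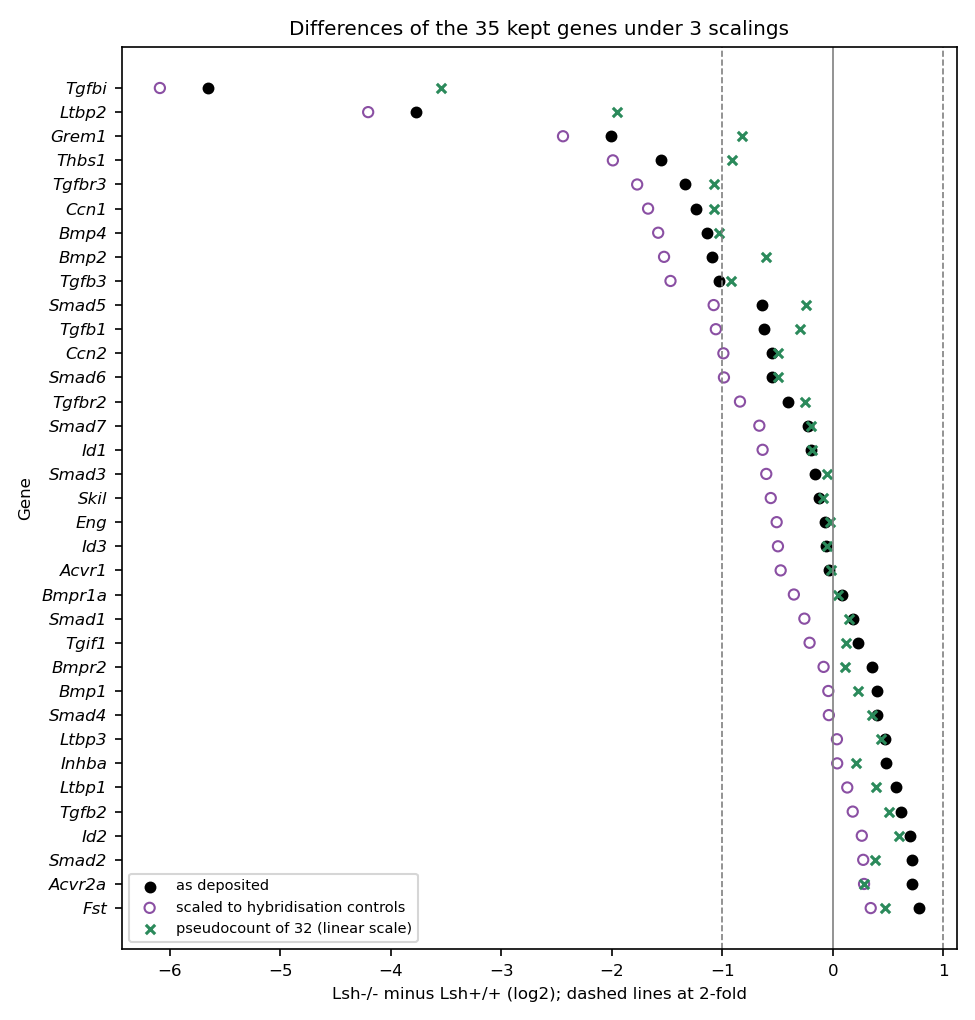
Lsh-/- minus Lsh+/+ (log2, x axis) of the 35 kept genes in order of their difference, as deposited (filled circles), scaled to the hybridisation controls (open circles) and after 32 was added to the linear values (crosses), 1 array a genotype and so without error bars; dashed lines mark 2-fold. The 9 lower genes keep their sign under the 3 scalings, which by construction cannot raise a negative difference above 0. With the hybridisation controls, 6 genes between 0 and 0.40 move to the other side of 0.

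Of the 6 target genes 2 were at least 2-fold lower (6.06% of all kept genes were) and none was higher, and Tgfbi stood apart from the other 5, which lay between -1.23 and 0.70. Tgfbi encodes a secreted matrix protein, named for its induction by TGF-beta, that binds integrins and collagens. It read 8.79 in Lsh+/+ and 3.14 in Lsh-/-, a difference of -5.65 that ended below the limit, or at least 30.1-fold lower, and only 3 of 9169 kept genes were farther below 0. Ccn1, a matricellular protein encoded by an immediate early gene of serum and growth factor responses, read 8.37 and 7.14, a difference of -1.23 (2.35-fold lower). Ccn2, its relative known as connective tissue growth factor and a classic target of TGF-beta, read 8.46 and 7.91, a difference of -0.55.

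The Id genes encode inhibitors of basic helix-loop-helix factors and are direct targets of BMP signalling. Id1 read 8.85 and 8.65, Id3 read 9.71 and 9.65, and Id2 read 7.25 and 7.95. Their differences were -0.20, -0.06 and 0.70, all within 2-fold, beside -1.09 and -1.14 for the ligand genes Bmp2 and Bmp4. After scaling to the hybridisation controls the differences of Id1, Id3 and Id2 were -0.63, -0.50 and 0.26, again within 2-fold. Id4, which was not in the main list, read 4.26 in Lsh+/+ and 1.95 in Lsh-/-. Its difference of -2.31 ended below the limit and is given as at least 1.29-fold lower.

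A wider list of 120 further pathway genes, of which 110 were measured and 67 kept, was described in the same way. At least 2-fold lower were 13 (6.06% of all kept genes were), at least 2-fold higher were 2 (4.65%), and the median was -0.18. Of the 60 with both values above the limit 9 were lower, where 4.03% of all such genes were, and for Chrdl2 and Id4, counted among the 13 by their measured difference, the fold over the limit is under 2. With the hybridisation scaling these became 24 lower (14.7% of all kept genes) and 1 higher. The lower genes were in the lists of TGF-beta targets (7 of 22 kept), extracellular modulators (5 of 17) and BMP targets (1 of 7). No further ligand (4 kept of 22 measured), receptor (6 kept) or Smad regulator (11 kept) was 2-fold lower.

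Among further TGF-beta targets 17 of 22 were below 0 and the median was -0.58, beside 48.2% below 0 and a median of 0.01 for all kept genes. After scaling to the hybridisation controls all 22 were below 0, as were 7302 of all 9169 kept genes. Postn, which encodes the matrix protein periostin, a paralog of Tgfbi, read 6.82 and 3.08 (at least 7.64-fold lower). Col1a2, a chain of type I collagen, and Tagln, an actin-binding protein of smooth muscle, differed by -4.43 and -2.68. Col1a1, which encodes the other chain of type I collagen, read 11.8 in Lsh+/+ and 11.1 in Lsh-/-, a difference of -0.73 and so within 2-fold. Snai1, a repressor of epithelial genes, read 6.05 and 4.49, a difference of -1.56, whereas its relative Snai2 differed by 0.14. Lox, which cross-links collagen and elastin, differed by -1.63 and Cdkn2b, a cell cycle inhibitor, by -1.48.

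Other standard targets of TGF-beta lay within 2-fold. Junb and Klf10, which encode early response transcription factors, differed by -0.54 and -0.58, while Fn1 and Bhlhe40 differed by -0.03 and -0.04. Of the Smad regulators, Pmepa1, a feedback inhibitor, differed by -0.87 and Ski, a Smad co-repressor, by -0.74. Of the smooth muscle and myofibroblast markers, which share Tagln and Acta2 with this list, 4 of 6 kept were at least 2-fold lower, where 6.06% of all kept genes were. Tagln is among the 4, and so is Mylk, which passed the limit on the Lsh+/+ array alone. The share of the marker difference in the list was not tested.

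Extracellular modulators outside the main list included Fbn1, which encodes the microfibril protein fibrillin 1, at 6.98 and 5.39 (-1.59), and Fbn2, which encodes fibrillin 2, at 5.32 and 6.38 (1.06 and 0.62 after scaling to the hybridisation controls). Fstl3, a follistatin relative, read 5.06 and 3.53 (at least 2.26-fold lower), and Chrdl2, a chordin relative, 4.0 and 2.07, which is at least 1.08-fold over the limit. Htra1, a secreted protease, differed by -1.12 and Pcsk6, a proprotein convertase, by -1.09. The difference of Pcsk6 was exactly that of Bmp2, and Smad3 and Nog also shared a difference (-0.16). Differences can thus repeat between genes of unlike level, and why was not tested. Bmper, a chordin-like BMP regulator, differed by 0.85. Of the BMP targets, Id4 read 4.26 and 1.95, at least 1.29-fold over the limit, and the other 6 kept genes lay within 2-fold. The receptor gene Amhr2, which binds anti-Müllerian hormone and signals through the BMP Smads, was the highest of the wider list, at 7.67 and 9.36 (3.21-fold higher).

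**Figure D5:**
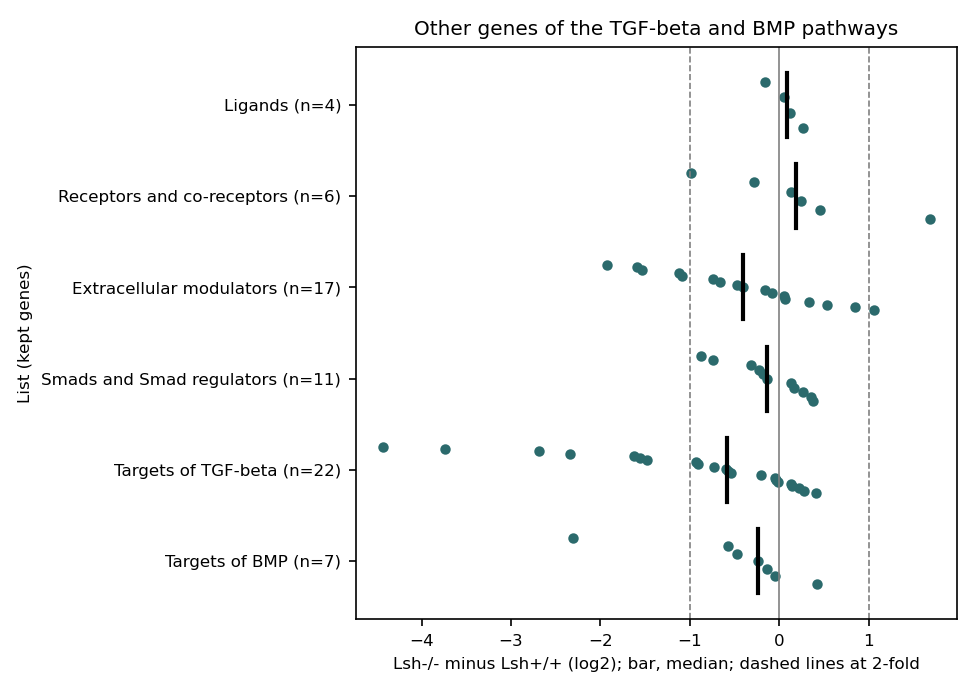
Lsh-/- minus Lsh+/+ (log2, x axis) of the 67 kept further pathway genes, 1 point a gene, by list; bars are medians and dashed lines mark 2-fold. The TGF-beta targets reach from -4.43 to 0.41 with a median of -0.58, while the 11 Smad regulators stay between -0.87 and 0.38.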

How the data were processed

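Per the labels' protocols, total RNA was extracted with Trizol, converted to biotin-labelled cDNA and hybridised to Affymetrix Mouse Genome 430 2.0 arrays. The authors deposited log2 expression values made with RMA, per the submitters' processing notes; its version, the grouping of the probes and the genome build are not given in the sources used here, and that the scale is log2 was read from the range, 0.89 to 13.1. RMA shares quantiles between arrays, so a shift of all genes together cannot be seen. The number of arrays limits the precision.

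Of 23886 transcript rows, 21230 matched 1 gene of the GRCm38.p6 RefSeq table by accession without version and 2656 matched none. For each gene the brightest row by the mean of both arrays was used. The dimness limit was the median of all rows of an array, and a fold whose dimmer side fell under it was taken from the limit and written "at least". The counting was tested on simulated data. Python 3.11.15, numpy 2.4.6, pandas 2.3.3 and statsmodels 0.14.6 were used. The genes and lists were chosen with earlier results of these data known. All genes of the main list are accounted for; of the wider list the rule named the 5 lowest (Col1a2, Postn, Tagln and Id4; 1 gene that the rule takes is not reported here) and both higher genes, and its other genes, and those of the closing observations, were named after their values were seen. Alternatives were the mean over rows, other limits, quantile normalization, removal of a loess trend, scaling to hybridisation controls, a pseudocount of 32, chromosome medians subtracted, identical values counted once and thresholds of 1.5-fold and 3-fold.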

Additional observations from a re-analysis of the deposited data

How the results depend on the processing

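No paired analysis was possible because there was a single array for Lsh+/+ and a single one for Lsh-/-, and so no replicate could be left out. The 9 genes at least 2-fold lower became 5 with the pseudocount and 3 at 3-fold, and the count of higher genes, 0, became 5 at 1.5-fold. Their median of -0.12 became -0.56 with the hybridisation controls and -0.31 when the limit was raised to the upper quartile. For the further pathway genes, the 13 lower became 22 at 1.5-fold, 8 at 3-fold, 8 with the pseudocount and 24 with the hybridisation controls. The 2 higher became 1 at 3-fold, with the pseudocount, with the hybridisation controls and with chromosome medians subtracted. Their median of -0.18 became -0.032 without a limit, -0.61 with the hybridisation controls and -0.48 with the raised limit. The 9 lower genes kept their sign in all 80 recomputed differences, but most settings could not change it. Each of these genes had 1 row, so the mean over rows, the other limits and identical values counted once repeated the main value. A pseudocount cannot change a sign, and the hybridisation scaling only lowered values. Grem1 was not kept under the raised limit and has no value there. The differences fell short of 2-fold in 7, which were those of Bmp2, Grem1, Tgfb3 and Thbs1 with the pseudocount, Bmp2 with chromosome medians subtracted (-0.97), and Tgfb3 with the loess trend removed (-0.98) and after quantile normalization (-0.95). Stricter thresholds and limits count fewer genes by construction; the cause of the other changes was not tested. Signal near the limit bounds the folds of Tgfbi, Ltbp2 and Grem1.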

Other observations

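Genes of the elastic fibre and its microfibrils, the structures to which the latent TGF-beta binding proteins attach, were looked at after the values of Ltbp2 and Fbn1 had been seen. Of 21 measured genes 18 were kept. At least 2-fold lower were 5 and at least 2-fold higher was 1 (6.06% and 4.65% of all kept genes were), but Fbn1, Lox and Fbn2, which are among these 6, had prompted the list or were already described, so the counts are no independent result. Below 0 were 16 of the 18 (48.2% of all kept genes), and the median was -0.71. With the hybridisation controls 16 of 18 were below 0, as were 7302 of all 9169 kept genes, and the median was -1.15. Mfap2, a microfibril component, read 6.89 in Lsh+/+ and 4.56 in Lsh-/-, a difference of -2.34. Emilin2, a glycoprotein of elastic tissue, read 7.68 and 5.48, a difference of -2.19. Fbln1 differed by -1.20 and Eln, the elastin gene, by -0.99, while Fbn2 was the gene past 2-fold higher.

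The relatives of Ccn1, Ccn2 and Thbs1 differed in both directions. Their list also held Spon2 and Tnxb, and 6 of its 11 measured genes were kept. At least 2-fold lower were 3 of the 6 and at least 2-fold higher was 1 (6.06% and 4.65% of all kept genes were). Of the 4 with both values above the limit 2 were lower (4.03% of all such genes were). Ccn3, a CCN protein also called NOV, read 2.74 in Lsh+/+ and 7.16 in Lsh-/-, at least 9.85-fold higher, in contrast to Ccn1 at -1.23 and Ccn4 at 0.17. Thbs2 read 5.53 and 4.09, a difference of -1.44, and Thbs3 differed by 0.41. Spon2 differed by -1.01, and Tnxb ended below the limit, at least 2.58-fold lower. The share past 2-fold lower was close to that of all kept genes for the YAP and TEAD pathway (6.25% beside 6.06%). That pathway also acts on Ccn1 and Ccn2, which are counted in the main list and left out of this one. Among the 16 kept genes of the YAP and TEAD list Ankrd1 alone was past 2-fold lower (4.97 and 3.80, at least 2.12-fold). None was past 2-fold higher. Below 0 were 12 of the 16 (48.2% of all kept genes were), and the median was -0.34. After scaling to the hybridisation controls 5 of the 16 were at least 2-fold lower, where 14.7% of all kept genes were. Tead1 differed by -0.68, Axl by -0.82 and Crim1 by -0.92, and Yap1 by -0.15. Above 0 were Ajuba at 0.52 and Stk4 at 0.31, while Lats1 and Arhgef17 read the same on both arrays.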
